A study of Vanessa cardui and Junonia coenia with 16 samples.

Results

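The hindwing of the common buckeye butterfly, Junonia coenia, was compared between animals labelled as optix knockouts and wild-type animals. The comparison uses 4 of the 16 RNA-seq libraries of the series, 2 from knockout hindwings and 2 from wild-type hindwings. All were taken late in pupal life, at the stage the labels name for melanin, when ommochrome and melanin pigments become visible. The 4 J. coenia forewing libraries, 2 knockout and 2 wild type of the same stage, enter the estimate of spread and are set beside the hindwing values. Larvae of every group came from a laboratory colony and were reared on artificial diet with plantain leaves at 27 °C. The knockout forewings are labelled as having large defects, whereas the knockout hindwings are labelled simply as knockouts. Knockouts of this kind, made by injecting CRISPR/Cas9 into eggs, are known to be mosaics of mutant and unedited cells, and how many cells of each wing were mutant is unknown. The labels call the libraries biological replicates and do not say whether wings of one number came from 1 animal.

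Optix is a homeodomain transcription factor that acts in the developing scale cells of butterfly wings. It is known to promote the orange, red and brown ommochrome pigments and to hold back melanin in the scales where it is active. Loss of optix in J. coenia is known to turn patches of scales dark and blue-iridescent, a structural colour set by the chitin layers of the scale. The comparison asks which transcripts of the hindwing differ in abundance when optix is lost.

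The deposited values are FPKM, fragments scaled to the length of the transcript and to the total of the library, for 182199 rows of a transcriptome assembly. A row identifier has the form TRINITY_DN, a number, a c number and a g number. Assemblers of this kind can split the transcripts of 1 gene, or its alleles, into several g rows. FPKM was therefore summed over rows that share the DN and c numbers, and such a sum is called a cluster. Of 124280 clusters, 38977 were above 0 in a hindwing library and 17294 averaged 1 FPKM or more over the 4 hindwing libraries. These 17294 were tested. They hold 40119 rows above 0, and 7483 of them rest on 1 such row. The identifiers carry no gene names, and 0 matched a reference table of 15000 genes of the other species of the series, Vanessa cardui. The clusters below are hence known by identifier only. Optix, pigment genes and markers of wing, blood, muscle or tracheal cells are not analysed here, and genotype and tissue rest on the labels.

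Sequencing depth and replicate agreement went with genotype. Relative to the shallowest J. coenia library, depth was 2.71 and 3.29 in the knockout hindwings, against 1.27 and 1.58 in the wild-type hindwings, as estimated from low values. The knockout hindwings held 26659 and 28231 clusters above 0, against 22244 and 20730 in the wild-type hindwings. The knockout hindwings were closer to each other (Pearson's r = 0.85 across the 17294 clusters, log2 scale) than the wild-type hindwings were (r = 0.66). A hindwing library resembled the forewing library of its own genotype and number more than any other hindwing library, with r from 0.89 to 0.95. Forewing libraries of another genotype or number were not compared with it. Of the clusters, 7.16% differed by over 2 log2 units between the knockout hindwings and 22.7% between the wild-type hindwings.

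Against this spread, 61 clusters changed in the knockout hindwing. On the log2(FPKM + 1) scale 31 rose and 30 fell (limma, Benjamini-Hochberg adjusted p under 0.05), which is 0.353% of the clusters tested, 0.179% higher and 0.173% lower. At an unadjusted p under 0.05 there were 1633 clusters, 1044 higher and 589 lower, against 865 for uniform p-values. The changes were large. In the 10 rises with a wild-type hindwing above 0 the change was 3.35 to 5.82 log2 units, and in the 18 falls with a knockout hindwing above 0 it was -6.96 to -2.70. For the others 1 genotype was listed at 0 in both hindwings, and the pseudocount sets the size of the fitted change. It bears on the ranges above too, since 2 of the 10 rises and 4 of the 18 falls had 1 low hindwing at 0. The largest fall, -6.96, was -8.905 with a pseudocount of 0.1. The median over all clusters was 0.13, and quantile normalization moved that median by -0.133. Every called cluster had groups that did not overlap, which fixes the direction within each number as well.

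The calls rest on few libraries. A fit of the 4 hindwing libraries alone called 0 clusters (limma, 1197 at an unadjusted p under 0.05, none with an adjusted p below 0.196). The fit with an estimated correlation between wings of one genotype and number called 40, of which 39 were among the 61. Without knockout hindwing 1 or knockout hindwing 2 no cluster was called (limma, 1134 and 1067 at an unadjusted p under 0.05). Without wild-type hindwing 1 there were 262 calls, and without wild-type hindwing 2 there were 623. In these last fits the remaining wild-type hindwing is assumed to vary like the other groups. In bulk tissue, fewer cells of a type and less RNA per cell cannot be told apart.

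**Figure D1:**
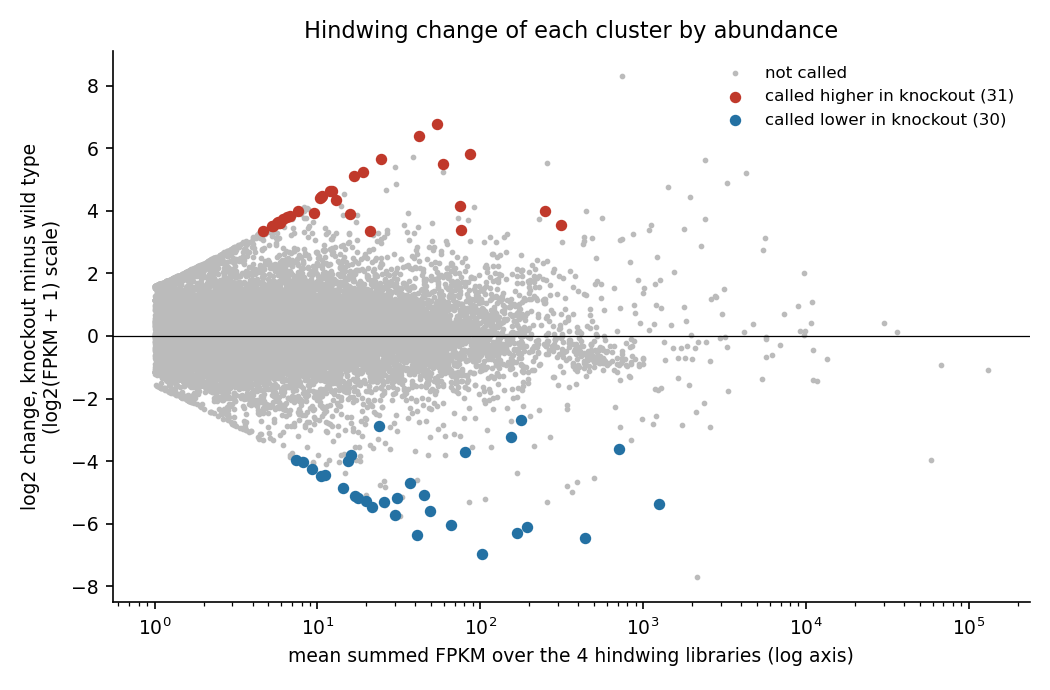
Each point is 1 of the 17294 clusters, by its mean summed FPKM over the 4 hindwing libraries (log axis) and its log2 change, knockout minus wild type. The 31 clusters called higher and the 30 called lower lie along the edges of the cloud, and some larger changes at high abundance were not called.

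The largest called falls were of transcripts that are abundant in the wild-type hindwing. TRINITY_DN41136_c1 was at 0 and 1.71 FPKM in the knockout hindwings, against 219 and 190 FPKM in the wild-type hindwings. The groups were far apart, and the cluster fell by 6.96 on the log2 scale (SE 0.52, adjusted p = 0.00993, limma). It is a single row. TRINITY_DN32573_c0 was at 14.9 and 5.03 FPKM in the knockout hindwings, against 746 and 997 FPKM in the wild-type hindwings. It fell by 6.46 on the log2 scale (SE 0.54, adjusted p = 0.0169, limma), and the whole sum came from 1 of its 2 rows. In the forewing the same cluster was at 20.9 and 11.6 FPKM in the knockouts, against 2453 and 2150 FPKM in the wild types. With a pseudocount of 0.1 the change of TRINITY_DN41136_c1 was larger, -8.905, but so was its error (SE 1.25), and it was not called (adjusted p = 0.074, limma).

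The largest called rises were of clusters listed at 0 in every wild-type library. TRINITY_DN44415_c3 reached 125 and 93.8 FPKM in the knockout hindwings and was listed at 0 in both wild-type hindwings (adjusted p = 0.00826, limma). Of its 3 rows, TRINITY_DN44415_c3_g2 carried 121 and 90.5 FPKM of that sum in the knockouts. TRINITY_DN51400_c11, a single row, was at 93.9 and 73.5 FPKM in the knockout hindwings and was also listed at 0 in both wild-type hindwings (adjusted p = 0.00826, limma). An exact 0 in FPKM can be a failed estimate, and the wild-type hindwings were the shallower libraries. No fold is given for either cluster, since its fitted size depends on the pseudocount.

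**Figure D2:**
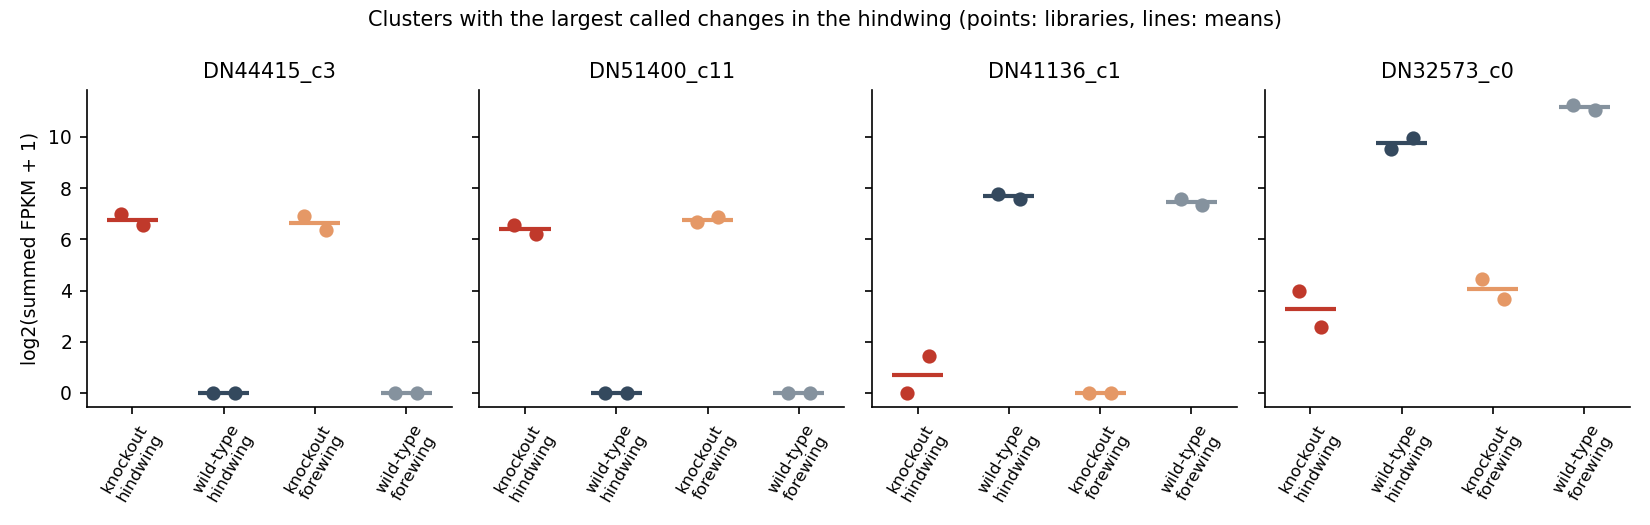
Log2(summed FPKM + 1) of the 4 clusters with the largest called changes, each point a library and each line the mean of 2 libraries. In all 4 clusters the knockout and wild-type libraries lie apart in the hindwing, and the forewing libraries lie on the same side.

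The 30 clusters that fell included some abundant transcripts. Their wild-type hindwing means ran from 14.9 to 2438 FPKM, with a median of 60.3 FPKM. Of these 30, 10 averaged 100 FPKM or more in the wild type, and 2 averaged 1000 FPKM or more. In 12 of them both knockout hindwings were listed at 0, in 4 one was, and in 14 both were above 0. In these 14 the knockout mean was 0.605% to 15.2% of the wild-type mean, with a median of 2.74%. The knockout hindwings were the deeper libraries by the estimate from low values, by at least 1.72 times. Read numbers themselves are unknown.

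The 31 clusters that rose were mostly lower in abundance. Their knockout hindwing means ran from 9.22 to 582 FPKM, with a median of 23.9 FPKM, and 7 were at 100 FPKM or more. In 21 of the 31, both wild-type hindwings were listed at 0, and 20 of these were at 0 in all 4 wild-type libraries of both wings. In 8 both wild-type hindwings were above 0, and there the knockout mean was 11.4 to 74.6 times the wild-type mean, with a median of 18.6. The most abundant called rise was at 735 and 430 FPKM in the knockout hindwings, against 61.7 and 35.3 FPKM in the wild-type hindwings (log2 change 3.56, SE 0.43, adjusted p = 0.0433, limma). Being listed at 0 in 1 genotype was not enough for a call. Of 573 clusters at 0 in both wild-type hindwings and above 0 in both knockouts, 21 were called (3.66%). Of 135 with the reverse pattern, 12 were called (8.89%), against 0.353% of all clusters tested. Both patterns already set the genotypes apart in the values that were tested. A share of calls above that of all clusters therefore follows from how these clusters were picked. Depth went with genotype here too, and its part was not tested.

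**Figure D3:**
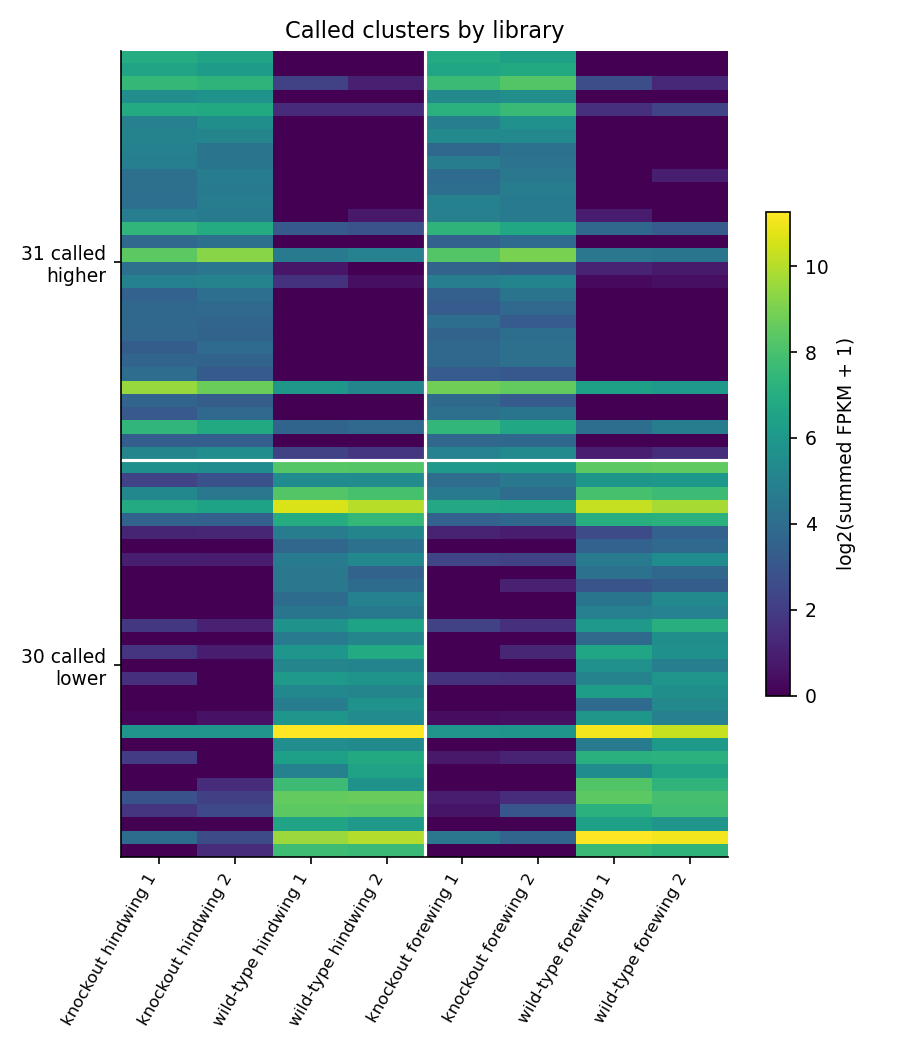
Log2(summed FPKM + 1) of the 61 called clusters (one line each, ordered by their hindwing change) in the 4 hindwing libraries on the left and the 4 forewing libraries on the right. The 31 clusters called higher are above the white line and the 30 called lower below it. In the forewing the knockout and wild-type libraries lie in the same order. The forewing did not set the hindwing change but entered the spread behind the calls.

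Rises and falls differed in how they sat in the assembly. A DN number can hold several c clusters, which are parts of 1 component of the assembly. Of the 30 clusters that fell, 21 were the only tested cluster of their DN number, against 2 of the 31 that rose and 48.4% of all clusters tested. The median number of tested clusters per DN number was 6 for the rises, 1 for the falls and 2 for all clusters. Some called clusters shared their DN number with other tested clusters. At least 1 of these had a log2 change in the opposite direction for 22 of 29 rises and 7 of 9 falls. Among all such clusters the share was 58.8%. It can grow with the number of clusters per DN number, which differed between these sets. These comparisons are a description and were not tested.

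When FPKM was summed over all rows of a DN number, 11 of 11618 sums were called (0.0947%, limma), and all 11 were lower in the knockout. For the 21 falls that are the only tested cluster of their DN number, the DN sum holds nearly the same values, so it is no further test of them. None of the 31 rises was called as a DN sum (smallest adjusted p = 0.0685, limma), and for 14 of them the DN sum changed by under 1 log2 unit. The same held for 6 of the 30 falls. The 2 named rises were not called as DN sums. The DN sum of TRINITY_DN44415_c3, over 7 tested clusters, was at 742 and 489 FPKM in the knockout hindwings and at 586 and 179 FPKM in the wild-type hindwings (log2 change 0.89, adjusted p = 0.738, limma). That of TRINITY_DN51400_c11, over 12 tested clusters, was at 295 and 2055 FPKM in the knockout hindwings and at 232 and 2516 FPKM in the wild-type hindwings (log2 change 0.03, adjusted p = 0.998, limma). It varied more between libraries of a genotype than between genotypes.

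Among the named falls, TRINITY_DN41136_c1 shares its DN number with 1 other tested cluster, which stood at 219 and 293 FPKM in the knockout hindwings and at 156 and 479 FPKM in the wild-type hindwings. The joint sum changed by -0.97 and was not called (adjusted p = 0.642, limma). TRINITY_DN32573_c0 is the only tested cluster of its DN number, and its DN sum is the same value (adjusted p = 0.0181 over the DN sums, limma).

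The DN sums that were called belonged to 11 of the falls. In 10 of these the fall was the only tested cluster of the DN number, and in 9 the log2 change of the DN sum was identical to that of the cluster, so for these the call repeats that of the cluster. They were at 19.6 to 2438 FPKM in the wild-type hindwings and at 0 to 59.7 FPKM in the knockout hindwings, and 5 were listed at 0 in both knockouts. The log2 changes of the other 6 ran from -6.46 to -2.70. The most abundant of them was TRINITY_DN46460_c6, at 59.7 and 57.0 FPKM in the knockout hindwings, against 2438 and 2437 FPKM in the wild-type hindwings (log2 change -5.36, SE 0.36, adjusted p = 0.00826, limma). Its wild-type libraries were nearly equal although wild-type hindwings differed widely elsewhere. The sum over its DN number had a log2 change of -4.82 and was called too (adjusted p = 0.0132, limma).

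**Figure D4:**
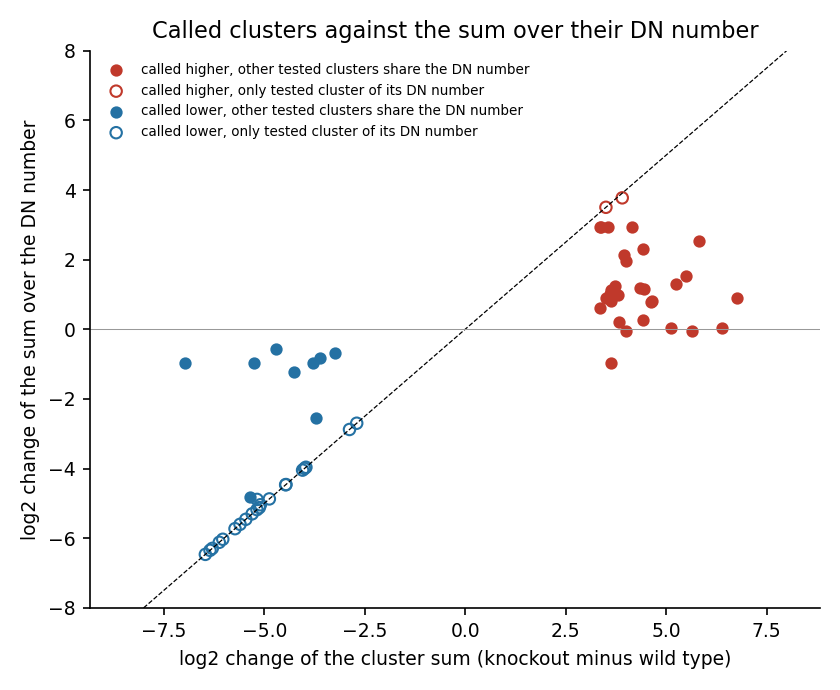
Log2 change, knockout minus wild type in the hindwing, of the 61 called clusters (horizontal axis) against the change of the sum over all rows of their DN number (vertical axis), with open circles for clusters that are the only tested one of their DN number and a dashed line of equality. Most falls lie on or near the line, where the open circles lie by construction, and most rises lie below it.

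Several clusters were called higher in 3 DN numbers, and 1 other DN number held a called rise and a called fall. In the first, 3 of 7 tested clusters were called. Its sum was at 7411 and 4454 FPKM in the knockout hindwings, against 1050 and 525 FPKM in the wild-type hindwings, a change of 2.95 log2 units (SE 0.49) that was not called (adjusted p = 0.131, limma). The groups of this sum did not overlap. The 3 clusters were each higher in both knockout hindwings than in either wild type, as every called rise was, which adds nothing to the sum. In the second, 2 of 5 tested clusters were called, and the sum was at 109.8 and 118 FPKM in the knockout hindwings, against 341 and 40.2 FPKM in the wild-type hindwings (log2 change -0.05, adjusted p = 0.994, limma). The third is that of TRINITY_DN51400_c11, given above, with 2 of 12 called. In both of these the sums of the genotypes overlapped.

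Single rows gave more calls than cluster sums. Of 28522 rows averaging 1 FPKM or more, 126 were called (0.442%, limma), 74 higher (0.259%) and 52 lower (0.182%). The sum of the row's cluster was called the same way for 31 of the 74 and 30 of the 52. Most of the others belonged to clusters with several rows. Of the 42 called rises in such clusters, 5 had a called sum, and for 17 the sum changed by under 1 log2 unit. Of the 24 called falls in such clusters, 6 had a called sum and for 12 the sum changed by under 1.

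The rows with the largest called rises lay in clusters whose sums were not called. TRINITY_DN39731_c1_g1 was at 200 and 252 FPKM in the knockout hindwings and listed at 0 in the wild-type hindwings (adjusted p = 0.00266, limma). Its partner row TRINITY_DN39731_c1_g3 was at 150 and 141 FPKM in the knockouts, against 384 and 192 FPKM in the wild types, and was not called (log2 change -0.90, SE 0.53, adjusted p = 0.703, limma). The cluster sum was at 349 and 394 FPKM in the knockouts and at 384 and 192 FPKM in the wild types, groups that overlap (log2 change 0.45, SE 0.51, adjusted p = 0.819, limma).

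TRINITY_DN40268_c0 had a row called in each direction in the hindwing. Its row TRINITY_DN40268_c0_g3 was at 242 and 173 FPKM in the knockout hindwings and listed at 0 in the wild types (adjusted p = 0.00266, limma). Its row TRINITY_DN40268_c0_g1 was listed at 0 in the knockouts and was at 62.2 and 53.5 FPKM in the wild types (adjusted p = 0.00574, limma). In the forewing the first of these rows was at 230 and 183 FPKM in the knockouts and listed at 0 in the wild types, whereas TRINITY_DN40268_c0_g1 was listed at 0 in all 4 libraries, wild types included. The test of the difference between wings did not call TRINITY_DN40268_c0_g1 (unadjusted p = 2.11e-05, adjusted p = 0.302, limma). The third row, TRINITY_DN40268_c0_g2, was at 201 and 139 FPKM in the knockouts and at 528 and 489 FPKM in the wild types, with no call in either direction (limma, adjusted p = 0.241). The sum was at 443 and 312 FPKM in the knockout hindwings, against 590 and 543 FPKM in the wild-type hindwings, and was not called (log2 change -0.60, SE 0.37, adjusted p = 0.698, limma). There were 2 clusters of this kind, with a row called higher and a row called lower.

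The rows with the largest called falls lay in clusters whose sums were called. Among all called falls in clusters with several rows, 6 of 24 had a called sum. TRINITY_DN41136_c1_g1 is the whole of its cluster, described above. TRINITY_DN46460_c6_g1 was at 21.0 and 18.7 FPKM in the knockout hindwings, against 2404 and 2417 FPKM in the wild-type hindwings (log2 change -6.85, SE 0.38, adjusted p = 0.00426, limma). The other row of TRINITY_DN46460_c6 was at 38.7 and 38.2 FPKM in the knockouts, against 34.2 and 20.8 FPKM in the wild types, and the sum fell as given above.

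In the values as deposited, the most abundant transcripts of the hindwing were more often lower than higher in the knockouts. Of the 20 clusters with the highest mean, 6 were lower in both knockouts than in both wild types, 1 was higher in both, 13 overlapped and 0 were called (limma, smallest adjusted p = 0.625). Of all clusters, 13.7% were lower in both knockouts, 21.9% were higher in both and 0.353% were called, so that under 1 call would fall among 20 at that rate. The most abundant cluster was at 98482 and 71174 FPKM in the knockout hindwings, against 171269 and 185346 FPKM in the wild-type hindwings. It made up 9.63% and 9.70% of total FPKM in the knockouts, against 14.3% and 17.9% in the wild types (log2 change -1.09, SE 0.60, adjusted p = 0.683, limma). The second was at 53809 and 40453 FPKM in the knockouts and at 92046 and 83754 FPKM in the wild types (log2 change -0.91, adjusted p = 0.698, limma). The third varied within both groups, at 73454 and 266 FPKM in the knockouts and at 39150 and 123238 FPKM in the wild types. Total FPKM was unequal, 1023181 and 733443 in the knockout hindwings, against 1197333 and 1034569 in the wild-type hindwings. As a share of it, the cluster ranked 6, lower as deposited, overlapped (0.817% and 1.59%, against 1.12% and 1.96%). The cluster ranked 5, overlapping as deposited, was higher (4.53% and 3.34%, against 2.36% and 2.15%). Others of the 20 changed in each of these ways.

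The 10 most abundant clusters held 39.0% and 29.2% of total FPKM in the knockout hindwings, against 40.7% and 48.0% in the wild-type hindwings. As deposited, 224 clusters averaging 100 FPKM or more were lower in both knockouts than in both wild types, and 92 were higher in both. Below a mean of 20 FPKM the counts were 1643 lower and 3152 higher. Depth also went with genotype there, and its part was not tested. With median-of-ratios scaling the counts were 256 lower and 74 higher at 100 FPKM or more, and 1918 lower and 2763 higher below 20 FPKM. With quantile normalization, which gives every library the same distribution by construction, they were 176 lower and 135 higher at 100 FPKM or more, and 2504 lower and 2599 higher below 20 FPKM. Lower counts exceeded higher ones at 100 FPKM or more as a whole under each of these scalings. The reverse held below 20 FPKM, both by the smallest margin with quantile normalization. Median log2 changes did not keep their sign. At 100 FPKM or more the median was -0.12 as deposited, -0.24 with median-of-ratios scaling and 0.02 with quantile normalization. Below 20 FPKM it was 0.15, 0.06 and -0.01. Other classes turned with the scaling. At 1000 FPKM or more, 28 were lower and 4 higher as deposited and with median-of-ratios scaling, but 11 and 14 with quantile normalization. From 20 to 100 FPKM, 494 were lower and 552 higher as deposited. The counts there were 532 and 544 with quantile normalization, but 595 and 427 with median-of-ratios scaling.

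Some of the largest changes were in clusters whose wild-type hindwings lay far apart, and these were not called. TRINITY_DN50972_c26, chosen after its values were seen, had the largest positive change of all clusters. It was at 1780 and 1189 FPKM in the knockout hindwings, against 19.9 and 0 FPKM in the wild-type hindwings (log2 change 8.32, SE 1.78, adjusted p = 0.19, limma). TRINITY_DN17519_c0, chosen in the same way, had the largest negative change, at 7.10 and 3.26 FPKM in the knockouts and at 8384 and 181 FPKM in the wild types (log2 change -7.72, SE 2.28, adjusted p = 0.34, limma). In both, the groups did not overlap. In all, 326 clusters with a change larger than the smallest called one were not called.

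The forewing of the same genotypes gave similar values for the called clusters. All 31 clusters that rose in the hindwing were higher in both knockout forewings than in both wild-type forewings, and all 30 that fell were lower in both. In the forewing, 61 of the 17294 clusters were called as well (0.353%, limma; 0.185% higher and 0.168% lower). Of the hindwing calls, 50 were called in the same direction in the forewing, which is 82.0% of either list. The hindwing and forewing libraries are separate, but libraries of one genotype and number deviate together: replicate 1 minus replicate 2 correlated at 0.65 between the wings of the knockouts and at 0.66 between those of the wild types. The forewing libraries also enter the spread behind the hindwing calls, so clusters with a small spread in both wings are called more readily. The forewing is therefore not an independent repeat.

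The named clusters had the following levels in the forewing. TRINITY_DN44415_c3 was at 119 and 82.6 FPKM in the knockout forewings and listed at 0 in the wild-type forewings. TRINITY_DN51400_c11 was at 100 and 115 FPKM in the knockout forewings and also listed at 0 in the wild types. TRINITY_DN41136_c1 was listed at 0 in the knockout forewings and was at 190 and 161 FPKM in the wild-type forewings. Both wings thus showed the same order of genotypes for these clusters.

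**Figure D5:**
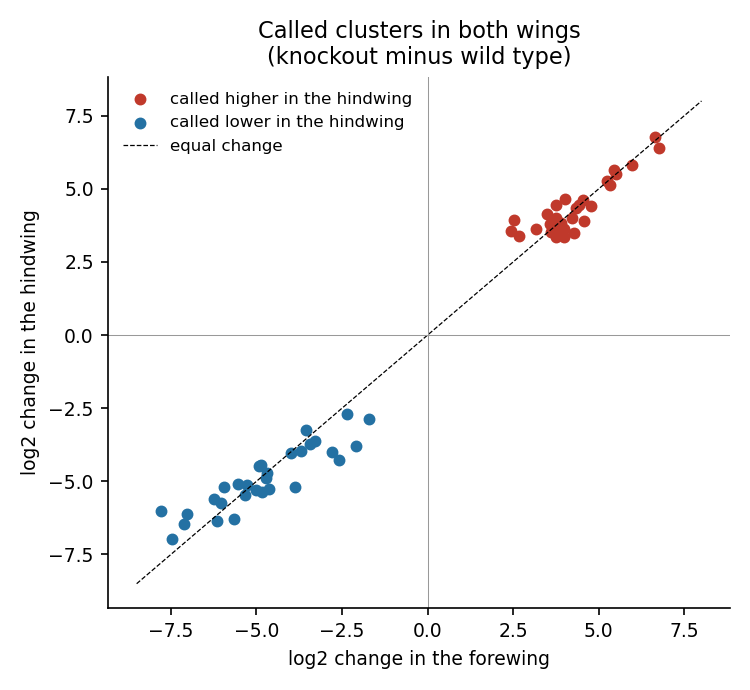
Log2 change, knockout minus wild type, of the 61 clusters called in the hindwing, in the forewing (horizontal axis) and the hindwing (vertical axis), with a dashed line of equal change. All 61 points lie in the quadrants of equal sign, and the test of the difference between the wings called none of them.

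No cluster was called for a difference of its knockout effect between the wings. The test of hindwing effect minus forewing effect called 0 of 17294 clusters (limma, 0% called, smallest adjusted p = 1), with 268 at an unadjusted p under 0.05 against 865 for uniform p-values. The fit that takes wings of one genotype and number as correlated also called 0 (984 at an unadjusted p under 0.05, none with an adjusted p below 0.135). Without wild-type hindwing 1 there were 176 calls of which 175 were more negative in the hindwing, and without wild-type hindwing 2 there were 472, of which 436 were. The 11 clusters called in the hindwing and not in the forewing gave no difference either, with an unadjusted p of 0.0417 at the smallest and an adjusted p of 1. Neither the count of 268 nor a p that misses the threshold shows that the wings respond alike.

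Groups that lay apart in opposite directions in the wings were few. There were 104 clusters higher in both knockout hindwings and lower in both knockout forewings, and 115 with the reverse order, together 1.27% of all clusters. Their median hindwing mean was 3.28 FPKM, against 5.21 FPKM over all clusters tested, and their highest was 44.4 FPKM. Clusters apart in the same direction in both wings numbered 2129 higher and 1251 lower, together 19.5%. Of the 219 clusters apart in opposite directions, 0 were called in the hindwing (limma), where the 0.353% of all clusters would give under 1.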

How the data were processed

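Per the labels' protocols, libraries were made from the poly(A) RNA of dissected wings, received 15 cycles of PCR and were read as pairs of 36 bp. The authors deposited 1 FPKM value per assembly row and library. The submitters' processing notes name Bowtie2, and identifiers start with the prefix of the Trinity assembler. The method behind FPKM, with program versions and any further scaling, is not given in the sources used here. The V. cardui table was not used, and 2 of its columns match no labelled sample.

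FPKM was summed over rows sharing DN and c numbers. Clusters averaging 1 FPKM or more over the 4 hindwing libraries were tested on log2(FPKM + 1) with limma 3.58.1 (R 4.3.3), so fold changes are on that scale and are understated for low clusters. A group-means model was fitted to all 8 J. coenia libraries (4 residual degrees of freedom) with moderated variances that follow a trend on the mean. The contrast itself uses the hindwing libraries. P-values are two-sided and were adjusted over all clusters. The code was tested on simulated data. Alternatives were another pseudocount, filter, scaling, block, set of libraries and unit of summing.

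Read numbers are unknown from FPKM, so no counting interval is given. Relative depth came from ratios of values under 0.6 FPKM, fitted over all 28 pairs of libraries, with a largest deviation of 0.08 (log2). Named identifiers are the largest changes among called clusters or rows whose groups did not overlap, at most 2 in each direction. For the difference between wings, the largest differences at an unadjusted p under 0.01 are named, none of them called. No table pairs identifiers with names, so gene and marker lists were not used. The comparison, summing rule and tests were chosen with earlier results of these data known.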

Additional observations from a re-analysis of the deposited data

Results flagged for a closer look

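The 4 clusters given here were taken for the largest differences of effect between the wings at an unadjusted p under 0.01. The test of the difference did not call any of them (limma, adjusted p = 1 for each). In all 4 the groups lay apart in opposite directions in the wings, as they did in 219 of the clusters tested. TRINITY_DN47737_c2 was at 1.83 and 6.38 FPKM in the knockout hindwings and listed at 0 in the wild-type hindwings. In the forewing it was at 3.60 and 0 FPKM in the knockouts, against 12.3 and 9.67 FPKM in the wild types, a difference of effects of 4.67 log2 units (SE 1.18). TRINITY_DN45660_c0 was at 3.05 and 6.70 FPKM in the knockout hindwings and listed at 0 in the wild-type hindwings. It was at 1.62 and 0 FPKM in the knockout forewings, against 5.24 and 6.43 FPKM in the wild-type forewings, a difference of 4.56 (SE 0.89).

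The other 2 were listed at 0 in both wild-type forewings. TRINITY_DN50268_c18 was at 6.44 and 1.97 FPKM in the knockout hindwings, against 9.41 and 10.2 FPKM in the wild-type hindwings. Its knockout forewings were at 17.2 and 13.7 FPKM, a difference of -5.23 (SE 0.76). TRINITY_DN39890_c0 was at 4.52 and 4.19 FPKM in the knockout hindwings, against 40.4 and 5.42 FPKM in the wild-type hindwings. Its knockout forewings were at 11.2 and 7.25 FPKM, a difference of -4.93 (SE 1.20). Without wild-type hindwing 2 this last difference was -6.28 and was called (adjusted p = 0.0118, limma). As sums over the DN number, the 4 differences were 0.03, 1.95, -0.17 and -4.52, and none was called. Each of the 4 includes a group listed at 0, so the pseudocount sets much of its size: with a pseudocount of 0.1 they were 9.32, 9.37, -8.70 and -8.26, again with none called (limma).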

How the results depend on the processing

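The 61 hindwing calls became 20 without the filter on low values, 40 with correlated wings, 0 with the hindwing libraries alone and 11 as DN sums. Leaving out 1 hindwing library gave 0 to 623 calls, and leaving out both wild-type libraries numbered 2, an alternative chosen after seeing the data, gave 742. The other alternatives gave 42 to 86. Of the 61, 19 were called in all 9 alternatives that keep every library and the cluster sums, 9 higher and 10 lower, TRINITY_DN44415_c3, TRINITY_DN51400_c11 and TRINITY_DN32573_c0 among them. The cause of these changes was not tested. The difference between wings gave 0 calls in the alternatives that keep every library, 0 to 472 without 1 hindwing library, and 448 without both wild-type libraries numbered 2.

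With the replicate number as a block there were 86 calls, 39 higher and 47 lower, and 59 of the 61 were among them. The labels do not say that a number marks a shared animal or batch, and replicate 1 minus replicate 2 correlated at 0.27 between the knockout and wild-type hindwings. The block gave 0 calls for the difference between wings. No named cluster changed direction under these alternatives, and each of the 4 named hindwing changes lost its call in the fit of the hindwings alone and without either knockout hindwing. TRINITY_DN41136_c1 and TRINITY_DN32573_c0 also lost theirs without both wild-type libraries numbered 2 (adjusted p = 0.0551 and 0.0798, limma).

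Unknown read numbers limit what an FPKM of 0 shows, and 2 libraries per group limit all tests. The forewing calls, 61 in the same fit, became 44 with correlated wings and 86 with a pseudocount of 0.1. A stricter filter on low values, set at 5 FPKM, gave 42. Forewing counts for its own libraries alone, without a library, without the filter or as DN sums are not given here. The forewing calls are therefore not shown to be more stable than the hindwing calls.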
